A study of Mus musculus and Rattus norvegicus with 28 samples.

Results

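Expression and promoter accessibility were described for 10 calcium handling genes of the sarcoplasmic reticulum and its junction with the cell surface: Ryr2, Casq2, Trdn, Jph2, Hrc, Atp2a2, Pln, Sln, Cacna1c and Slc8a1. They were selected by gene symbol, and all 10 passed the filter on low expression in both species, being 10 of 13979 tested genes (55450 listed) in the mouse and 10 of 13625 (32623 listed) in the rat. Mouse cardiomyocytes were from the left ventricles of wild-type C57BL/6 mice of both sexes at embryonic day E18.5 and postnatal days P1, P3 and P7, with 2 RNA-seq and 2 ATAC-seq libraries per age. Rat cardiomyocytes were from Sprague Dawley pups at P1, were cultured, and received 100 nM trichostatin A (TSA, an inhibitor of histone deacetylases) or its solvent DMSO 1 day after plating, with 3 RNA-seq libraries per treatment. In both species the digested ventricle was placed on plastic so that non-cardiomyocytes attached and could be left behind. The study calls its replicates biological, without saying in the sources used here which animals or cultures each library came from. The p-values measure the spread between these libraries, with an exception stated where it applies.

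In heart muscle, a small calcium current through the L-type channel of the surface membrane opens ryanodine receptors on the facing sarcoplasmic reticulum, and the released calcium drives contraction. The calcium is then pumped back by SERCA, which phospholamban and sarcolipin restrain, or leaves the cell through the sodium-calcium exchanger. This system goes on maturing after birth, when the tubules of the surface membrane and their junctions with the reticulum form.

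The upstream sequences of Jph2, Slc8a1 and Casq2 are shown. ATAC-seq summits, the points of highest accessibility, fell inside them in 7, 5 and 2 libraries. Slc8a1 holds matches to the motif of GATA factors and Casq2 a match to that of MEF2 factors, which act in heart muscle. A Cacna1c sequence with summits in 5 libraries and a GATA match is not shown. Those shown are the 250 bases before the RefSeq transcript start in build GRCm38.p6 (mm10), at chr2:163397994-163398243 (minus strand), chr17:81738388-81738637 (minus strand) and chr3:102086165-102086414 (plus strand). Capitals mark GATA matches in Slc8a1 and the MEF2 match in Casq2.
Jph2: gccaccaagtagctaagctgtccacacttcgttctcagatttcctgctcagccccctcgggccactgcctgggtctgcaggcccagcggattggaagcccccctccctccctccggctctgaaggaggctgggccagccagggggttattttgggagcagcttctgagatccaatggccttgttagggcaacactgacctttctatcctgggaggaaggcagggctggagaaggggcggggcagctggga
Slc8a1: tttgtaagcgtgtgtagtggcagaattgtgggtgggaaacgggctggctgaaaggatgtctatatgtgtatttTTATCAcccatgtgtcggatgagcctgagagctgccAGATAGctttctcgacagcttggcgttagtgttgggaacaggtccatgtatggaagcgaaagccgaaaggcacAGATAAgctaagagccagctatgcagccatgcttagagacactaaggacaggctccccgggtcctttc
Casq2: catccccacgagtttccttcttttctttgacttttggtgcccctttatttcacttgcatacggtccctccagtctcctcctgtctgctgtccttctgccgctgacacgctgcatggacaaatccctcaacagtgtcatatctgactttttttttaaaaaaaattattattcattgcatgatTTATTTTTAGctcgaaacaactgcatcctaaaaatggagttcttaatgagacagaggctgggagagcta
Of the 10 genes, 7 were in the RefSeq promoter table, with 10 promoters between them. Casq2 was the only one of the 7 with a MEF2 match, at positions -69 to -60 from the start. Such a match was thus in 1 of the 10 promoters, against 2.92% of 32851 promoters. GATA matches were the word AGATAA, the word AGATAG, the word TGATAA or the word TGATAG on either strand. They were in 4 of the 10 promoters, against 26.5% of all promoters. These 4 belonged to Pln, Cacna1c and Slc8a1, 3 of 7 genes. None of the 7 held an AP1 match (the word TGACTCA or the word TGAGTCA, 4.46% of promoters) or a CArG match (1.47%). The matches describe these windows only.

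Together the 10 genes made up less of the transcriptome at P3 and P7 than at E18.5 in the mouse. Their share of the transcripts of a library, from TPM (a length-corrected share of the transcript pool), was 0.235% and 0.274% for E18.5, 0.224% and 0.376% for P1, 0.144% and 0.156% for P3 and 0.0588% and 0.0370% for P7. The P3 and P7 libraries were thus all below those of E18.5 and P1. In bulk libraries, fewer cells of a type and less RNA per cell cannot be told apart, and this holds for every mouse result here. The summed level of 12 cardiomyocyte markers, in FPKM (fragments scaled to transcript length and sequencing depth), lay between 20741 and 26824 for E18.5, 10373 and 16028 for P1, 5839 and 6920 for P3 and 717 and 1700 for P7, with none of the markers at 0 and all 12 lower at P3 and at P7. Fibroblast markers went from between 872 and 941 at E18.5 to between 3892 and 4566 at P7, when 9 of 10 were higher. Smooth muscle and pericyte markers went from between 416 and 543 to between 1660 and 1866, a sum carried mainly by Acta2 and Tagln, and 4 of 8 were higher at P7 and 2 lower. Atrial markers went from between 1789 and 2599 at E18.5 to between 371 and 574 at P7, when 5 of 6 were lower. Their median log2 fold change at P7 was -2.12, against -4.10 for the cardiomyocyte markers. Erythroid markers were between 29046 and 35395 at E18.5 and at most 41.0 at later ages, so that the E18.5 libraries held many red cell transcripts. The part of these cell types in the results was not tested, other than by the comparison relative to cardiomyocyte markers given further on.

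The genes of the calcium release unit were examined first. Ryr2, the release channel (chr13:11553102-12106945, minus strand, mm10), was at 21.0 and 27.3 FPKM for E18.5, 13.1 and 22.3 for P1, 6.93 and 9.09 for P3 and 1.91 and 0.822 for P7. The P1 libraries overlapped those of E18.5, whereas each later age lay wholly below the one before it. Casq2, calsequestrin, which buffers calcium inside the reticulum (chr3:102086415-102146514), was at 151 and 239 FPKM for E18.5, 115 and 131 for P1, 52.0 and 76.5 for P3 and 24.8 and 11.3 for P7, with no overlap between successive ages. Trdn, triadin, which anchors calsequestrin to the channel (chr10:33080554-33476709), was at 51.9 and 58.8 FPKM for E18.5, 49.1 and 70.3 for P1, 38.4 and 31.7 for P3 and 7.81 and 6.23 for P7. Its E18.5 and P1 libraries overlapped and its large step came between P3 and P7.

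Hrc, a histidine-rich calcium-binding protein of the reticulum lumen (chr7:45335290-45338974), was at 48.2 and 58.8 FPKM for E18.5, 16.7 and 36.6 for P1, 10.5 and 11.6 for P3 and 2.65 and 0.785 for P7. It was already wholly below E18.5 at P1. Jph2, junctophilin, which ties the reticulum to the surface membrane (chr2:163336242-163397993, minus strand), was at 50.1 and 55.2 FPKM for E18.5, 57.8 and 74.7 for P1, 40.3 and 36.5 for P3 and 26.4 and 25.4 for P7. It was the only one of the 10 genes whose P1 libraries were both above E18.5, and at P7 both libraries kept more than 25 FPKM.

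Among the genes of calcium uptake, Atp2a2, which encodes SERCA (chr5:122453513-122502225, minus strand), had the highest level in all 8 libraries. It was at 614 and 754 FPKM for E18.5, 609 and 1117 for P1, 374 and 404 for P3 and 158 and 91.2 for P7. Ordered by FPKM among the tested genes, it held places 97 and 88 at E18.5 and 424 and 772 at P7, while Ryr2 went from places 3217 and 2437 to 11356 and 12797. Pln, phospholamban (chr10:53337667-53345987), was at 248 and 242 FPKM for E18.5, 124 and 176 for P1, 114 and 99.1 for P3 and 32.7 and 16.1 for P7. Sln, sarcolipin, found mainly in atria and skeletal muscle (chr9:53850164-53854560), was at 13.4 and 21.2 FPKM for E18.5, 14.1 and 17.1 for P1, 10.9 and 4.68 for P3 and 8.60 and 7.90 for P7. The Sln libraries of P7 lay between those of P3, so that its low values were reached at P3, in contrast to the further drop of Pln.

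Of the surface membrane genes, Cacna1c, the pore-forming subunit of the L-type channel (chr6:118587240-119196418, minus strand), was at 14.2 and 12.04 FPKM for E18.5, 7.43 and 10.2 for P1, 3.15 and 5.74 for P3 and 1.83 and 1.56 for P7. Slc8a1, the sodium-calcium exchanger (chr17:81373105-81738377, minus strand), was at 37.2 and 42.1 FPKM for E18.5, 31.1 and 48.5 for P1, 15.5 and 17.5 for P3 and 4.25 and 3.14 for P7. Cacna1c was below E18.5 in both libraries of each later age, and Slc8a1 only from P3 on. The fewest reads behind a mouse value were the 67.8 estimated for Hrc in a P7 library, and for Atp2a2 the estimate was never under 16320.

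**Figure D1:**
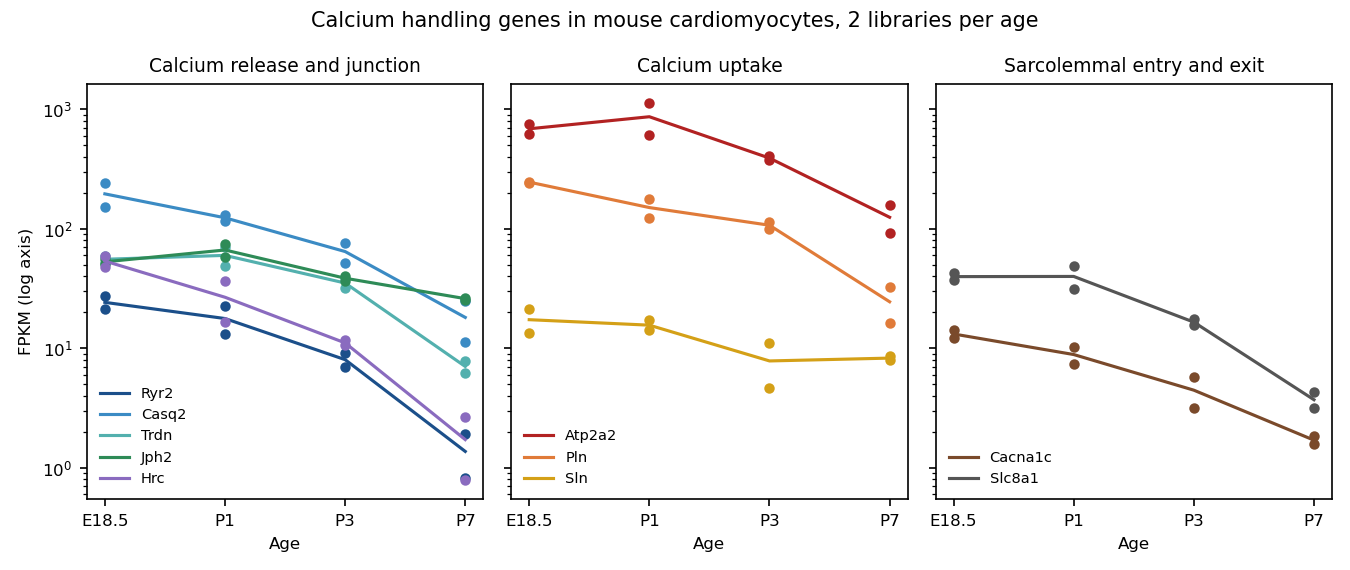
FPKM (log axis) of the 10 genes at each age in the mouse, with 1 point per library and a line through the means of 2 libraries. Atp2a2 is highest in every library, the P3 and P7 points of every gene lie below its E18.5 points, and Jph2 and Sln lose least by P7. Of all tested genes, 28.4% lay wholly below E18.5 at P3 and 32.7% at P7.

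The levels were compared between ages with limma on log2(FPKM + 1), fitted over all tested genes, and a gene was called when its adjusted p was under 0.05 and its log2 fold change over 1 in size. The pseudocount makes the fold changes of low genes, such as Ryr2, Hrc and Cacna1c at P7, smaller than the ratios of their FPKM. At P1 none of the 10 genes was called against E18.5 in either direction (limma; 2 at an unadjusted p under 0.05; 1, Hrc, called by limma-voom), where 10.1% of all tested genes were called higher and 6.06% lower. Hrc had a log2 fold change of -1.07 (SE 0.40, limma adjusted p = 0.0633) and Pln of -0.73 (adjusted p = 0.0843). Without replicate 2 of P1, or without either replicate of P7, Hrc was also called, which makes the count 1. In 4 genes (Casq2, Hrc, Pln and Cacna1c) both P1 libraries were below both E18.5 libraries and in 1 (Jph2) above. Over all tested genes the shares were 26.0% below and 43.5% above.

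At P3, 7 of the 10 genes were lower than at E18.5, against 8.88% of all genes. Hrc had a log2 fold change of -2.17 (SE 0.40, limma adjusted p = 0.00292), and the log2 fold changes of the other 6 were -1.58 for Casq2, -1.48 for Ryr2, -1.41 for Cacna1c, -1.22 for Slc8a1, -1.19 for Pln and -1.12 for Sln. Atp2a2 (-0.81, adjusted p = 0.0682), Trdn (-0.65, adjusted p = 0.0266) and Jph2 (-0.45, adjusted p = 0.0371) did not pass both thresholds. Without replicate 2 of E18.5 the count was 4, since Pln, Casq2 and Sln were lost, and with TPM in place of FPKM it was also 4. Both P3 libraries were below both E18.5 libraries in 10 of 10 genes and in 28.4% of all tested genes.

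At P7, 8 of the 10 genes were lower than at E18.5 and none was higher, where 12.3% of all genes were called lower and 15.4% higher. Hrc had the largest change, with a mean of 53.5 ± 7.55 FPKM (SD, n = 2) at E18.5 and 1.72 ± 1.32 at P7, a log2 fold change of -4.41 (SE 0.40, limma adjusted p = 6.59e-05), or 21.3-fold lower. Ryr2 (-3.44, SE 0.31), Casq2 (-3.42, SE 0.36) and Pln (-3.35, SE 0.30) were 10.8-fold, 10.7-fold and 10.2-fold lower, at limma adjusted p of 6.01e-05, 0.000130 and 5.92e-05. Slc8a1 (-3.12, SE 0.22) and Trdn (-2.82, SE 0.20) fell with the smallest adjusted p of the 10 genes (2.61e-05 for both, limma). Atp2a2 (-2.49, SE 0.32, limma adjusted p = 0.000353) and Cacna1c (-2.39, SE 0.25, adjusted p = 0.000139) changed least among the 8.

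The other 2 genes, Jph2 and Sln, lay just inside the fold threshold at P7. Jph2 went from 52.7 ± 3.59 to 25.9 ± 0.695 FPKM (SD, n = 2; log2 fold change -0.99, SE 0.15, limma adjusted p = 0.000769) and Sln from 17.3 ± 5.50 to 8.25 ± 0.492 (-0.95, SE 0.34, limma adjusted p = 0.0434). Both were called with limma-voom, which makes the count 10. The median log2 fold change over the 10 genes came to -0.29 for P1, -1.20 for P3 and -2.97 for P7, beside 0.15, 0.16 and 0.14 over all tested genes. The 3 contrasts share the E18.5 libraries.

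**Figure D2:**
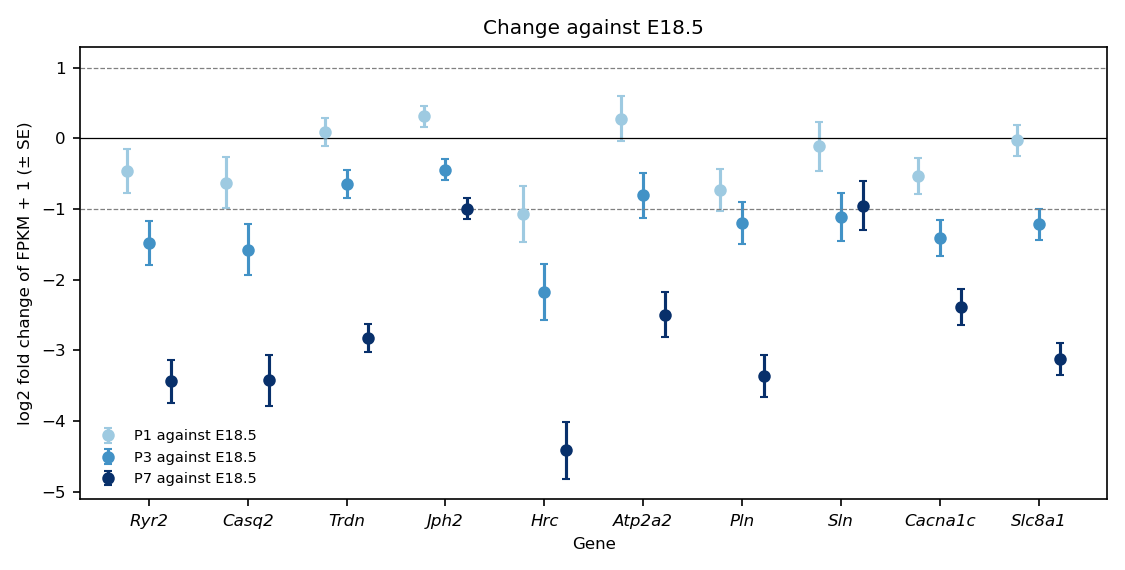
Log2 fold change of FPKM + 1 with its SE (bars) for each gene at P1, P3 and P7 against E18.5, with dashed lines at the fold threshold. P1 points lie between the dashed lines except that of Hrc (-1.07), and by P7 8 genes are beyond -1 while Jph2 (-0.99) and Sln (-0.95) stop at the line.

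Between the postnatal ages, 9 of the 10 genes were lower at P7 than at P1 (5.46% of all genes), with log2 fold changes from -3.34 for Hrc to -1.31 for Jph2. Sln was the exception (-0.84, limma adjusted p = 0.138). From P3 to P7, 7 of the 10 genes were lower (2.20% of all genes), from Hrc (-2.24) to Atp2a2 (-1.69), and Cacna1c (-0.97, limma adjusted p = 0.0718), Jph2 (-0.55) and Sln (0.17) were not called. This count rested on single libraries. It was 1 (Trdn) without replicate 1 or without replicate 2 of P3, and 3 (Trdn, Pln and Slc8a1) without replicate 2 of P7. It was 0 with no filter on low genes. From P1 to P3 none of the 10 was called by limma or limma-voom, 9 had an unadjusted p under 0.05, and the values ran from -1.19 (Slc8a1) to -0.47 (Pln), where 0.0143% of all genes were called in either direction.

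The genes were also expressed relative to the mean log2(FPKM + 1) of the 12 cardiomyocyte markers in the same library. That mean was 8.95 and 9.35 for E18.5, 7.90 and 8.57 for P1, 7.31 and 7.16 for P3 and 5.43 and 4.23 for P7. Against E18.5 and relative to the markers, none of the 10 genes was higher at P1 (23.1% of all genes; 2, Jph2 and Atp2a2, at an unadjusted p under 0.05), 2 at P3 (85.1%) and 6 at P7 (99.0%), and none was lower at any age. Since most genes at P3 and nearly all at P7 were higher on this scale, the counts at those ages say how closely each gene's change followed that of the markers. From E18.5 to P7, Hrc changed relative to the markers by -0.09 (SE 0.60, limma adjusted p = 0.878). Ryr2 changed by 0.88, Casq2 by 0.89 and Pln by 0.96, and none of these 4 passed the test. Sln (3.37, SE 0.61, limma adjusted p = 3.13e-08) and Jph2 (3.32, SE 0.59, limma adjusted p = 2.21e-08) rose most relative to the markers. Cacna1c (1.93), Atp2a2 (1.82), Trdn (1.50) and Slc8a1 (1.20) were in between. These values are changes since E18.5, not distances from the marker mean. In the P7 libraries Sln was still below that mean, at -2.16 and -1.08, and Atp2a2 above it, at 1.88 and 2.29. The same marker mean was subtracted from every gene of a library, and the SE were nearly alike (0.57 for Atp2a2 to 0.61 for Cacna1c). The p-values and shares called on this scale thus rest on a spread common to all genes. They do not measure the spread of each gene between the libraries. The median of the 10 genes at P7 was 1.35 and that of all genes 4.46. The count of 6 at P7 became 3 (Jph2, Sln and Atp2a2) without replicate 2 of E18.5, and the count of 2 at P3 became 0 when either replicate of E18.5 or of P3 was left out.

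**Figure D3:**
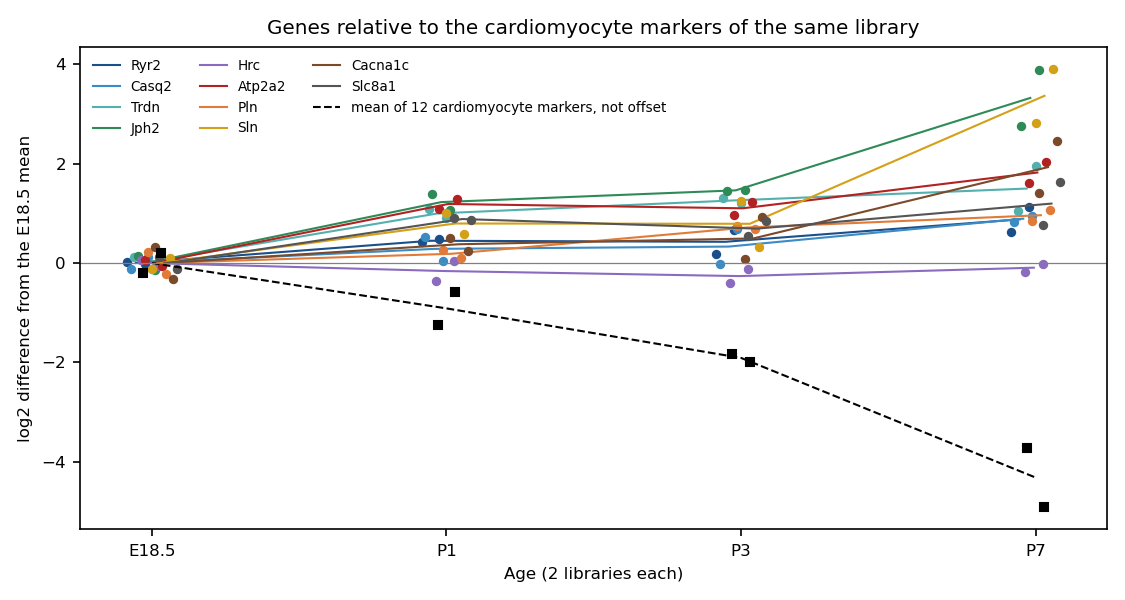
Log2 difference from the E18.5 mean by age, for each gene minus the cardiomyocyte marker mean of its library (points, 2 libraries per age, lines through the means) and for the marker mean itself (black squares, dashed line). The marker mean drops at each age, Hrc stays near 0 and Sln (3.37) and Jph2 (3.32) rise most relative to the markers from E18.5 to P7.

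Over the 8 libraries the log2 profiles of the 10 genes were alike. Median correlations of a gene with the others ran from 0.641 (Sln) and 0.882 (Jph2) to 0.974 (Ryr2). Correlations to the mean of their standardised profiles ran from 0.722 (Sln) and 0.948 (Jph2) to 0.993 (Ryr2 and Slc8a1). Each gene is itself part of that mean, which raises its correlation. Outside the 10 genes and the markers, the profiles most like that mean were those of Perm1 (r = 0.998), Lmo7, Fam189a2, Adcy5 and Rassf3 (0.996 each). These are descriptions over 8 libraries that share the same ages, with no test. Perm1 was at 12.5 and 16.5 FPKM at E18.5 and at 1.69 and 0.697 at P7, and Lmo7 at 82.9 and 89.7 and at 7.17 and 4.52.

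The transcripts of Atp2a2 changed in proportion. SERCA2a is the main form of heart muscle, and SERCA2b, with a longer tail, is made in most cell types. A transcript that codes for 998 residues, the shorter form (3984 nt), took 90.9% and 92.7% of the gene's FPKM for E18.5, 94.4% and 96.0% for P1, 79.5% and 78.1% for P3 and 78.0% and 38.96% for P7. One that codes for 1044 residues, the longer form (5674 nt), took 8.75% and 6.31%, 5.28% and 3.87%, 18.5% and 19.8%, and 20.9% and 59.6%. In FPKM the longer form was at 53.8 and 47.6 for E18.5, 32.2 and 43.3 for P1, 69.1 and 80.1 for P3 and 32.9 and 54.4 for P7. It was thus below E18.5 in both P1 libraries, above it in both P3 libraries and overlapping it at P7. The shorter form went from 558 and 699 FPKM for E18.5 to 123 and 35.5 for P7. The P7 libraries differed widely from each other, and the split, which StringTie estimates from reads that both forms share, was not tested.

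Other genes of calcium handling were taken from 7 lists. Of 11 partners of the release channel and its junction, 4 were lower at P7 than at E18.5 and 2 higher, where 12.3% of all tested genes were lower and 15.4% higher, and these shares apply to each list at P7. Srl, sarcalumenin, a calcium-binding protein of the reticulum, went from 136 and 178 FPKM at E18.5 to 9.47 and 3.59 at P7 (log2 fold change -4.49, SE 0.40, limma adjusted p = 5.85e-05). Cav3, the muscle caveolin (-2.80), S100a1, a calcium sensor (-2.66), and Tmem38a, a potassium channel of the reticulum (-2.32), were also lower. Bin1, which shapes the membrane tubules, was higher, from 18.6 and 9.22 to 68.9 and 58.3 FPKM (2.19, SE 0.29), as was Sri, sorcin, from 13.2 and 18.6 to 41.7 and 41.4 (1.35, SE 0.17). Bin1 and Sri are named because they make up the count of higher genes, a choice made after their values were seen.

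Among the regulators of uptake, 2 of 4 listed genes were tested and 1 was lower, Ppp1r1a, an inhibitor of protein phosphatase, at 16.8 and 24.6 FPKM at E18.5 and at 0.552 and 0.192 at P7 (-3.97, SE 0.28, limma adjusted p = 2.76e-05). Of 5 tested channel subunits, 4 were lower and none higher: Cacnb2 (-1.93), Cacna1h (-1.80), Cacna1g (-1.46) and Rrad, an inhibitor of the L-type channel (-1.14). Of the 11 paralogs of the 10 genes, 3 passed the expression filter and 2 were lower, Casq1 (-3.58) and Jph1 (-1.05). Among 10 genes of calmodulin, its kinases and the beta adrenergic arm, 4 were lower and 2 higher, the latter near the share over all genes. Camk2a (-2.75), the receptor Adrb1 (-2.34) and Camk2d (-1.42) were lower and Calm3 (1.14) higher. The call was lost for Rrad without replicate 2 of E18.5 (-1.11) or of P7 (-0.77), and for Jph1 (-0.89) and Calm3 (0.96) without replicate 1 of E18.5.

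Of 8 genes of IP3 receptors and store-operated entry, 2 were higher and none lower, a count of higher genes close to the share over all genes. They were Orai2, a subunit of the store-operated channel (1.89, SE 0.24), and Itpr3, an IP3 receptor (1.05, SE 0.20, and 0.91 without replicate 1 of P7, which was not called). Among the genes of surface pumps and mitochondrial uptake, the mitochondrial uniporter Mcu was higher, from 7.00 and 4.66 FPKM to 15.9 and 15.1 (1.29, SE 0.18, limma adjusted p = 0.000545), as was the mitochondrial exchanger Slc8b1 (1.27, SE 0.24).

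ATAC-seq reads come from open chromatin, and the deposited peaks were called in each library separately. A gene was counted when a peak came within 2.5 kb of the start of any of its transcripts. At E18.5 this held for 6 and 3 of the 10 genes in the 2 libraries, against 67.1% and 62.4% of all tested genes. It held for 8 and 4 at P1 (69.2% and 43.0%), 7 and 6 at P3 (91.7% and 87.7%), and 6 and 7 at P7 (86.5% and 85.5%). The libraries held from 13149 to 95257 peaks, with the 2 longest lists at P3, so presence of a peak was not compared between ages. With each list cut to the same length by score, the counts were 6 and 3 at E18.5 (67.1% and 58.8% of all genes), 4 and 3 at P1 (48.8% and 35.5%), 0 and 1 at P3 (40.8% and 52.7%), and 2 and 3 at P7 (48.8% and 64.0%).

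Jph2 had a peak at its start in 7 of 8 libraries (chr2:163397737-163398579, all but replicate 2 of E18.5), with fold enrichments of 3.23 to 5.89 and all 7 summits inside the upstream sequence printed for it. Slc8a1 also had one in 7 of 8 (chr17:81738137-81738641, all but replicate 2 of P1, 3.05 to 7.40), with 5 summits inside its printed sequence. Atp2a2 had a peak over its first exon (chr5:122501170-122502937) in 6 libraries, at 3.03 to 8.19, the latter the highest fold enrichment among the 10 genes. By score, a Cacna1c peak (233) and a Jph2 peak (215) ranked above the highest of Atp2a2 (201). Jph2, Slc8a1 and Atp2a2, with log2 fold changes of -0.99, -3.12 and -2.49 from E18.5 to P7, each had a start peak in all 4 libraries of P3 and P7. Those peak lists were long. Cut to the same length by score, they left Atp2a2 a peak within 2.5 kb in replicate 2 of P3 and both libraries of P7. Slc8a1 then had one in replicate 2 of P7 only, and Jph2 in no library of P3 or P7.

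Casq2 had a peak upstream of its start (chr3:102085770-102086515) in 5 libraries, 1 of P1 and all 4 of P3 and P7, at 3.03 to 4.22, and 2 of the summits were inside the printed sequence that holds the MEF2 match. With lists cut to the same length by score, Casq2 had no peak within 2.5 kb in any library. Its FPKM was lowest at P7, when both uncut peak lists, longer than those of E18.5 and P1, held the peak. Cacna1c had peaks near several of its starts in all 8 libraries, of which that at chr6:119196442-119196839 was found in 6. Hrc had a peak in all 8 libraries (chr7:45332961-45333902), but the summit of the strongest lay 1637 bases upstream of the Hrc start and 3 bases from the start of its neighbour Trpm4. Ryr2 had peaks in 5 libraries, of which 2 covered its start (chr13:12106816-12107057, replicate 1 of P1 and replicate 2 of P7). Pln had a single peak, in replicate 1 of P1 and 2265 bases upstream, and Trdn and Sln had none in any library. Pln and Trdn, without a start peak, were at 242 FPKM and 51.9 FPKM or more at E18.5. The upstream sequence of Pln had 32.8% G and C, against a median of 52.4% over all promoters and 62% in Jph2.

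**Figure D4:**
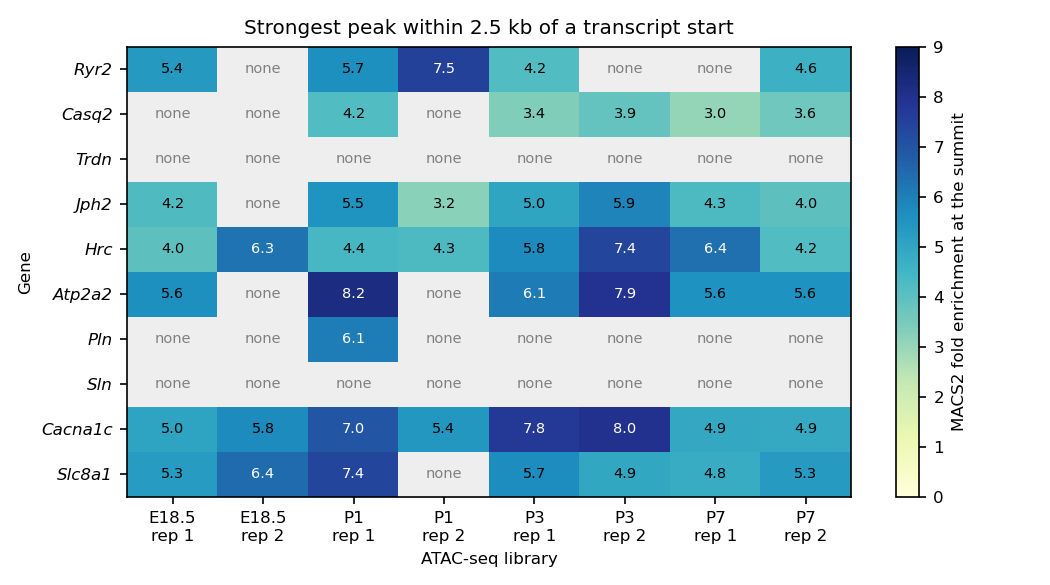
MACS2 fold enrichment at the summit of the strongest peak within 2.5 kb of a transcript start, for each gene (rows) in each of 8 ATAC-seq libraries (columns). Hrc and Cacna1c have a peak in all 8 libraries, Pln in 1 and Trdn and Sln in none.

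In cultured rat cardiomyocytes the 10 genes made up 0.590%, 0.585% and 0.331% of all TPM in the DMSO libraries and 0.509%, 0.511% and 0.554% with TSA. Replicate 3 of DMSO stood apart. In it Nppa, the atrial natriuretic peptide, was at 7396 FPKM against 1161 and 1068 in the other DMSO libraries, and in replicate 3 of TSA it was at 10952 against 1182 and 1111. Cardiomyocyte markers summed to between 10246 and 16045 FPKM with DMSO and between 9247 and 20639 with TSA, and fibroblast markers to between 7553 and 8053 and between 4632 and 7349, with none of the markers of either list at 0. The part of these differences in the results was not tested.

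Of the release genes, Ryr2 was at 90.9, 95.3 and 63.4 FPKM with DMSO and at 85.5, 96.2 and 87.0 with TSA. Casq2 was at 382, 355 and 390 FPKM with DMSO and at 357, 357 and 511 with TSA. Trdn was at 113, 109 and 53.8 FPKM with DMSO and at 98.6, 92.5 and 86.7 with TSA. In all 3 the treatments overlapped, and for Ryr2 and Trdn the lowest library was replicate 3 of DMSO. Jph2 was at 97.4, 93.5 and 131 FPKM with DMSO and at 83.3, 80.6 and 160 with TSA, with replicate 3 the highest in both. Hrc was at 35.5, 35.4 and 11.3 FPKM with DMSO and at 27.8, 24.5 and 25.8 with TSA, so that all TSA values lay between the DMSO ones.

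Of the uptake genes, Atp2a2 was at 1154, 1253 and 445 FPKM with DMSO and at 940, 917 and 981 with TSA. Pln was at 846, 773 and 354 FPKM with DMSO and at 845, 821 and 894 with TSA. Sln was at 39.6, 32.7 and 26.6 FPKM with DMSO and at 39.5, 37.0 and 33.3 with TSA. Replicate 3 of DMSO was the lowest library for all 3 genes. At the surface membrane, Cacna1c was at 35.7, 35.7 and 22.2 FPKM with DMSO and at 37.2, 40.8 and 28.8 with TSA, and Slc8a1 at 143, 145 and 142 and at 125, 141 and 200. Replicate 3 of DMSO was at 0.318 of the mean of the other DMSO libraries for Hrc, 0.370 for Atp2a2, 0.437 for Pln and 0.483 for Trdn, but at 1.06 for Casq2 and 1.37 for Jph2.

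None of the 10 genes was called between TSA and DMSO by limma or by limma-voom, and none had an unadjusted p under 0.05, where 1.81% of all genes were called higher and 0.316% lower. The log2 fold changes ran from -0.05 (Jph2) to 0.47 (Pln, SE 0.32, limma adjusted p = 0.477), with a median of 0.11 against 0.03 over all genes. An exact two-sided permutation test over the 6 libraries gave p from 0.3 to 1, and 0.1 is the smallest it can give. That test does not use the pairing of replicate numbers, and in limma with the replicate number as a block none was called either. Without replicate 3 of DMSO the log2 fold changes of Hrc (-0.43, limma adjusted p = 0.0533), Atp2a2 (-0.35) and Trdn (-0.27) turned negative, and again none was called. The SE, up to 0.41 for Hrc and 0.38 for Atp2a2, was larger than the change in those genes, so that changes of that size were not detectable with these libraries. The ratio of Pln to Atp2a2 was 0.734, 0.617 and 0.796 with DMSO and 0.899, 0.895 and 0.911 with TSA. The other ratios computed between the 10 genes overlapped between treatments, and no ratio was tested. The shorter Atp2a2 form (4283 nt) took 72.7%, 71.8% and 61.3% of the gene with DMSO and 71.1%, 70.0% and 75.2% with TSA.

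**Figure D5:**
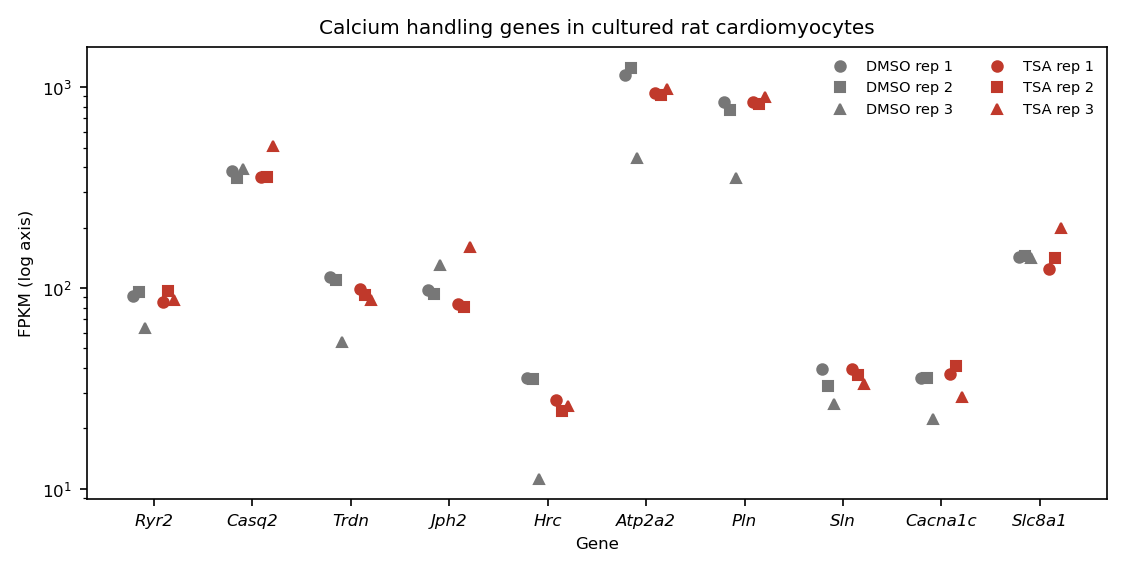
FPKM (log axis) of the 10 genes in cultured rat cardiomyocytes, 1 point per library, grey for DMSO and red for TSA, with a marker shape for each replicate number. Replicate 3 of DMSO (grey triangle) is far below the other libraries for Hrc (11.3), Atp2a2 (445) and Pln (354), and the treatments overlap for every gene.

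In the lists of other calcium handling genes, 4 were higher with TSA and none lower, where 1.81% of all genes were higher and 0.316% lower. They were 1 of 11 tested partners of the release channel, 1 of 2 tested regulators of uptake and 2 of 5 tested paralogs. Fkbp1b, which stabilises the closed ryanodine receptor, was at 1.94, 1.85 and 3.30 FPKM with DMSO and at 7.49, 6.63 and 7.09 with TSA (log2 fold change 1.29, SE 0.19, limma adjusted p = 0.0188). Ppp1r1a was at 7.13, 7.55 and 4.71 FPKM with DMSO and at 16.8, 20.8 and 22.1 with TSA (1.50, SE 0.19, adjusted p = 0.0134). The paralogs Jph4, a junctophilin of neurons (1.44, adjusted p = 0.0197), and Slc8a2, a sodium-calcium exchanger of brain (1.19, adjusted p = 0.0401), were also higher, from at most 0.121 and 0.851 FPKM to between 1.43 and 2.82 and between 1.87 and 2.34. The TSA libraries were above all DMSO libraries for these 4 genes, as they were for 17.1% of all tested genes. The 4 genes are named because they were called higher, so this adds no support to the calls. With the replicate number as a block, Fkbp1b and Ppp1r1a (limma adjusted p = 0.0301 for both) and Jph4 (0.0410) were still called, and Slc8a2 was not (0.0607). Slc8a2 also lost its call with TPM (limma adjusted p = 0.0596), with no filter on low genes (0.0541) and with a pseudocount of 0.1 (0.0708). With single libraries left out, the call was lost in 5 of 6 fits for Fkbp1b and Slc8a2, in 4 for Jph4 and in 3 for Ppp1r1a, while the log2 fold changes stayed at 1.182 to 1.48 for Fkbp1b, 1.07 to 1.41 for Slc8a2, 1.25 to 1.57 for Jph4 and 1.32 to 1.61 for Ppp1r1a. These alternatives were added after seeing the data. No gene of the channel subunits (5 tested), the calmodulin and kinase list (9), the IP3 receptor list (8) or the pump list (6) was called.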

How the data were processed

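Mouse and rat RNA-seq and mouse ATAC-seq were used, and 6 HiChIP libraries were not analysed here. The authors aligned reads with HISAT2 2.1.0 and, per the file headers, made the deposited FPKM, TPM and coverage per transcript with StringTie 1.3.5. MACS2 was run by the authors on each ATAC-seq library, and the deposited peaks give a score, a ratio (fold enrichment) and a −log10 q. FPKM was summed per gene. Genes with at least 1 FPKM in at least 2 mouse or 3 rat libraries were tested with limma 3.58.1 (R 4.3.3) on log2(FPKM + 1), with age or treatment as the only term and all libraries of the species in the fit, and p-values were adjusted over all tested genes by Benjamini-Hochberg. Depth, estimated from coverage and FPKM, was 29.3 M to 37.5 M reads in the mouse and 28.2 M to 38.5 M in the rat (M, mega). Steps were tested on simulated data. Samples were grouped per the labels. Rat libraries with the same number deviated together (r of 0.194 to 0.346), as did replicate 2 of DMSO and replicate 1 of TSA (0.167). The main rat test was unpaired, and pairing by replicate number entered as a block in an alternative fit. Mouse libraries with the same number did not deviate together (r of -0.0964 to 0.171).

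All 10 genes were described in every library, with the 4 largest called genes per list of other calcium handling genes (and Bin1 and Sri beyond them) and the 5 genes of most similar profile, except for an item that is not reported here. The genes, lists and tests were chosen with earlier results of these data known.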

Additional observations from a re-analysis of the deposited data

How the results depend on the processing

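Of 1090 comparisons of single genes with an alternative, 1011 kept their direction and their side of the thresholds, 23 reversed, 16 gained and 40 lost a call. The reversals were of values that had not passed the test, and the cause was not tested. For P1 against E18.5, Trdn was at -0.11 with median-of-ratios scaling, Sln at 0.11 and Slc8a1 at 0.21 with TPM, and Slc8a1 at 0.0816 with limma-voom. With single libraries left out, Trdn ran from -0.17 to 0.34, Atp2a2 from -0.16 to 0.71, Sln from -0.43 to 0.20 and Slc8a1 from -0.338 to 0.29, and for P7 against P3 Sln ran from -0.37 to 0.70. For TSA against DMSO, Trdn was at -0.0742 with limma-voom, and with single libraries left out Ryr2 ran from -0.0570 to 0.23, Casq2 from -0.0724 to 0.19, Trdn from -0.27 to 0.27, Jph2 from -0.37 to 0.12, Hrc from -0.43 to 0.35, Atp2a2 from -0.35 to 0.40, Cacna1c from -0.0192 to 0.34 and Slc8a1 from -0.11 to 0.23. The number of the 10 genes called for P1 against E18.5 became 1 with limma-voom, with median-of-ratios scaling and with only those ages in the fit, that for P3 against E18.5 became 4 with TPM, and that for P7 against P3 became 0 with no filter. With single libraries left out the counts ran from 0 to 1 for P1 and from 4 to 7 for P3 against E18.5, from 1 to 7 for P7 against P3, and stayed at 0 for TSA. Relative to the cardiomyocyte markers they ran from 0 to 2 for P1, from 0 to 3 for P3 and from 3 to 8 for P7, and the count for P3 became 1 with a pseudocount of 0.1, with Tnnt2 and Actn2 as the only markers and with the replicate number as a block. TPM moved the median of all genes against E18.5 by 0.23 to 0.25 on the log2 scale, and median-of-ratios scaling by -0.18 to -0.15. The share of higher calls for P7 against E18.5 was 55.7% in the main analysis, 68.1% with TPM and 45.5% with median-of-ratios scaling. With peak lists cut by score, the genes with a peak numbered 4 in replicate 1 of P1, 0 and 1 in the libraries of P3, 2 and 3 in those of P7, and within 1 kb they numbered 2 in replicate 2 of P1.

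With the replicate block, the count for TSA against DMSO was 0 as without it, and the mouse block, where libraries share only a number, gave 8 for P7 against E18.5 and 5 at P7 relative to the markers. Slc8a2 had an adjusted p of 0.0607 for TSA with the block (limma). Of 363 alternatives for the other calcium handling genes, added after seeing the data, 334 kept the call and 29 lost it.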
